A study of Mus musculus with 12 samples.

Results

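Ccl2, Ccl7, Ccl8 and Ccr2, 3 chemokines that attract monocytes or other leukocytes and 1 chemokine receptor, were measured in the oviducts of mice given lipopolysaccharide (LPS). They were chosen by gene symbol, with earlier results of these data known, and are 4 of the 185 endogenous probes of the table. Ccl2 and Ccl7 rose mainly at the high LPS dose, Ccl8 was already above every control mouse at the low dose, and Ccr2 did not pass the test at either dose.

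The animals were female CD1 mice, an outbred stock, aged 6 to 8 weeks and injected intraperitoneally on the day of estrus. The 4 control mice received 100 µL of phosphate-buffered saline alone. In the same volume, 4 low-dose mice were given LPS of E. coli serotype 055:B5 at 2 µg each and 4 high-dose mice at 10 µg each, and the oviducts of all were taken after 24 h. Each mouse had 1 lane of an nCounter inflammation panel, which counts fluorescent barcodes bound to single mRNA molecules without amplification. No other alleles or agents are named in the labels, and the series asks how LPS dose changes inflammatory mRNAs in this tissue.

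LPS is a component of the outer membrane of Gram-negative bacteria and is sensed by the receptor Tlr4 with its partner Ly96. Signalling from this receptor through NF-kB, and cytokines released in turn, are known to induce monocyte chemokines in macrophages, fibroblasts, epithelium and endothelium. Ccl2 and Ccl7 bind Ccr2, which inflammatory monocytes carry and use to leave the bone marrow and to enter tissue. Mouse Ccl8 has been described as a ligand of Ccr8, whereas human CCL8 binds several receptors, CCR2 among them. Whole oviduct holds epithelium, muscle, vessels and resident leukocytes, so that a change in the number of cells of a type and a change in RNA per cell cannot be told apart in these counts.

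In the RefSeq annotation of assembly GRCm38.p6, Ccl2, Ccl7, Ccl11, Ccl12, Ccl8 and Ccl1 follow each other in this order on chromosome 11, with no other protein-coding gene between them. Ccr2 lies on chromosome 9. The table names the transcripts by RefSeq accession, and all 4 accessions occur among the transcripts of protein-coding genes in that annotation. Whether each belongs to the gene named beside it was not checked. Of the ligands, RefSeq's promoter table used here has an entry for Ccl8, which was called higher than control at both doses. Its 250 bases before the transcription start are shown for that reason, at chr11:82114935-82115184, plus strand, GRCm38.p6, 5′ to 3′, with capitals marking the TATA box letters TATAAA.
Ccl8: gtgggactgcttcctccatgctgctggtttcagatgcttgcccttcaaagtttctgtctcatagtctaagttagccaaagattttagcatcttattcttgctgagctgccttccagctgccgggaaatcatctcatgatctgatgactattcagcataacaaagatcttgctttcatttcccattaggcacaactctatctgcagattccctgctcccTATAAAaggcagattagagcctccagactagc
The capitals begin 32 bases before the start. On the gene strand, 7.59% of the 32851 windows of this length in the table hold TATAAA, a motif that was added after the sequence was seen. None of the other motifs searched on both strands lies in this window. These were NF-kB by its consensus (held by 7.25% of all windows), AP-1 as TGANTCA (6.75%), the GC box GGGCGG (32.7%), the interferon-stimulated response element (2.98%) and the STAT site (7.02%).

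The endogenous counts per lane ranged from 98258 to 196878. The values below are scaled counts, that is raw counts divided by the geometric mean of 6 reference genes of the lane, set to a geometric mean of 1 over the lanes. Genes were tested with edgeR's quasi-likelihood test over all 12 lanes, and the Benjamini-Hochberg adjustment covered all 165 tested genes. All 4 genes were among these. Their raw counts lay above the lane's negative control limit (the mean plus 2 SD of 8 negative probes, 3.16 to 6.78 counts) in every lane, except for Ccl7 in control mice 2 and 3. Control mice 2 and 4 had the lowest shares of fields of view counted, 73.7% and 62.3%. Of the 10 listed markers of oviduct epithelium and muscle 0 were in the table, so the tissue label could not be checked against them.

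Ccl2, the best studied monocyte chemokine, was low in every control mouse, at 62.4, 59.5, 38.9 and 34.9 scaled counts in mice 1 to 4. At the low dose it stood at 112.2, 224.9, 41.4 and 88.2, and at the high dose at 497.5, 547.5, 885.0 and 712.1. Every high-dose mouse lay above every low-dose and every control mouse, while low-dose mouse 3 lay within the control range. The mean was 48.9 ± 14.1 for controls, 116.7 ± 77.9 for low-dose mice and 660.5 ± 175.5 for high-dose mice (SD, n = 4 each). The high dose raised Ccl2 by 3.75 ± 0.47 on the log2 scale (SE), or 13.5-fold, with an adjusted p of 0.000297 by edgeR. Against the low dose the rise was 2.50 ± 0.44, or 5.66-fold (adjusted p = 0.00739 by edgeR). The low dose itself did not pass against control, at 1.25 ± 0.43 (SE; adjusted p = 0.184 by edgeR), with a 95% interval of 0.30 to 2.20. It passed in 1 of 26 alternatives, without low-dose mouse 3, at 1.53 with an adjusted p of 0.0159 by edgeR. Without low-dose mouse 2 it stood at 0.72 (adjusted p = 0.55 by edgeR).

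Ccl7, which binds Ccr2 and other receptors, was also highest in the high-dose mice. Controls stood at 16.0, 5.18, 5.11 and 7.98 scaled counts, and 2 of these 4 mice, with raw counts of 4 (mouse 2) and 5 (mouse 3), were not above the negative limit. A raw count of 4 has an exact 95% Poisson interval of 1.09 to 10.2, which covers counting error only. At the low dose Ccl7 stood at 19.9, 35.0, 4.78 and 9.91, and low-dose mouse 3 was again lowest, below every control mouse by a margin within counting error (raw count 6, exact Poisson interval 2.20 to 13.1). High-dose mice reached 132.5, 109.5, 169.9 and 178.6, all above every other mouse. The high dose raised Ccl7 by 4.05 ± 0.56 (log2, SE; adjusted p = 0.000467 by edgeR) against control and by 3.08 ± 0.52 (adjusted p = 0.00739 by edgeR) against the low dose. With 2 of 4 control lanes not above the limit, the first of these sizes rests in part on counts near background. Every low-dose lane, the reference of the second size, was above its limit. Low-dose mouse 3 was close to it, at a raw count of 6 against 4.14. The second size therefore also rests in part on counts near background. Without low-dose mouse 2 the rise over the low dose came to 12.8-fold in place of 8.44-fold. The low dose did not pass against control, at 0.97 ± 0.56 (log2, SE; adjusted p = 0.487 by edgeR), with a 95% interval of -0.26 to 2.20. Without low-dose mouse 2 this difference stood at 0.37, or 1.29-fold in place of 1.96-fold.

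Ccl8 was the one ligand of the 3 that passed at the low dose. Controls stood at 165.3, 47.9, 49.1 and 56.9 scaled counts, low-dose mice at 350.3, 587.2, 311.6 and 252.7, and high-dose mice at 732.5, 395.7, 887.8 and 780.5. Every low-dose mouse lay above every control mouse, including low-dose mouse 3, whose Ccl2 and Ccl7 lay within or below the control range. The high-dose and low-dose groups overlapped, since high-dose mouse 2 lay below low-dose mouse 2. Means were 79.8 ± 57.2 for controls, 375.4 ± 146.8 for low-dose mice and 699.1 ± 212.4 for high-dose mice (SD, n = 4 each). Ccl8 rose by 2.22 ± 0.45 at the low dose (log2, SE; adjusted p = 0.0223 by edgeR), or 4.67-fold. At the high dose it rose by 3.12 ± 0.46 (adjusted p = 0.000687 by edgeR), or 8.70-fold. The difference between the doses, 0.90 ± 0.43, did not pass (adjusted p = 0.217 by edgeR), with a 95% interval of -0.04 to 1.83.

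The low-dose call of Ccl8 was not firm. It was lost in edgeR with TMM scaling (adjusted p = 0.0502), with DESeq2 size factors (0.0563), with only the 2 groups fitted (0.114) and without control mice 2 and 4 (0.184), and also when control mouse 2, 3 or 4, or low-dose mouse 1 or 2, was left out singly. The rise itself stayed between 1.80 and 2.87 on the log2 scale over the 26 alternatives. Control mouse 1, the highest control, held the rise down: without it Ccl8 was 7.30-fold higher at the low dose and 13.6-fold higher at the high dose. Scaling by total count lowered the high-dose fold change of all 3 ligands by over 1.5 times, to 3.14 for Ccl2, 3.41 for Ccl7 and 2.46 for Ccl8 on the log2 scale, and each still passed.

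**Figure D1:**
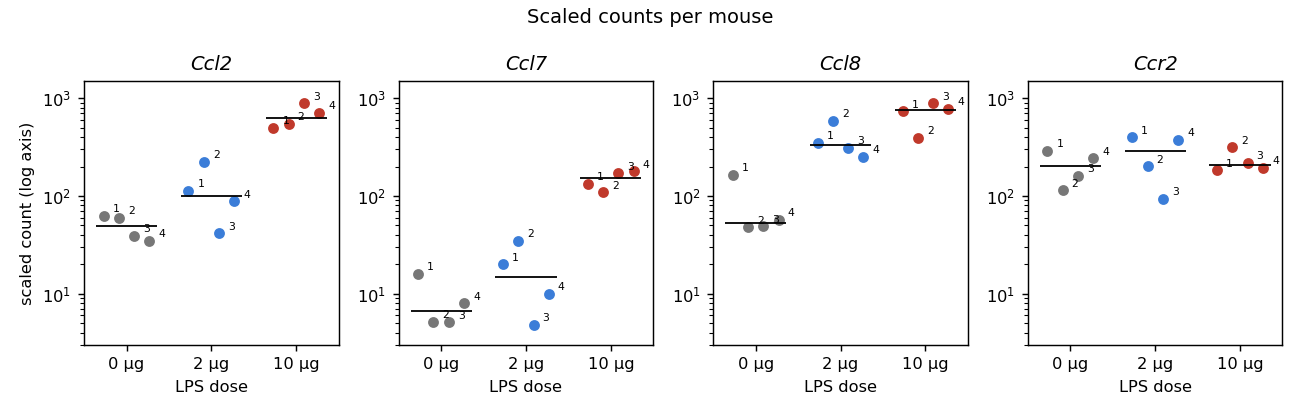
Scaled counts (log axis) of Ccl2, Ccl7, Ccl8 and Ccr2 against LPS dose, 1 point per mouse with its number and a line at the group median. The 4 high-dose mice lie above all others for Ccl2 and Ccl7, the 4 low-dose mice lie above all controls for Ccl8, and the 3 groups overlap for Ccr2.

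Ccr2, the receptor of Ccl2 and Ccl7, stood at 290.2, 113.9, 161.6 and 242.4 scaled counts in controls. Low-dose mice stood at 398.2, 200.4, 93.2 and 376.5 and high-dose mice at 182.5, 313.3, 219.2 and 194.8. The 3 groups overlapped, and both the highest and the lowest of the 12 mice were low-dose mice. The means were 202.0 ± 79.2 for controls, 267.1 ± 145.9 for low-dose mice and 227.5 ± 59.2 for high-dose mice (SD, n = 4 each). The high-dose difference was 0.17 ± 0.42 (log2, SE; adjusted p = 0.841 by edgeR), with a 95% interval of -0.76 to 1.10. The low-dose difference was 0.40 ± 0.42 (adjusted p = 0.736 by edgeR), with an interval of -0.53 to 1.33. The sign of the high-dose difference was not stable: TMM gave -0.13, scaling by total count -0.46 and the size factors of DESeq2 -0.17, none of which passed.

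All 4 genes varied more between mice of a group than most genes of the panel. The SD of log2 scaled counts (plus 1) around the group means was 0.66 for Ccl2, 0.80 for Ccl7, 0.64 for Ccl8 and 0.69 for Ccr2. The median over the 165 genes was 0.33. Ranked from the most variable, the genes held places 25, 16, 28 and 21. For Ccl2, Ccl7 and Ccr2 the spread was widest at the low dose. The highest low-dose mouse had 5.43, 7.32 and 4.27 times the count of the lowest. At the high dose these ratios were 1.78, 1.63 and 1.72. The lowest low-dose mouse for Ccl7 had a raw count of 6. For Ccl8 the ratio was widest in controls, at 3.45.

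Against the panel, 3 of the 4 genes were called higher at the high dose, compared with 22.4% of the 165 tested, and 0 genes were called lower. For the low dose 1 of the 4 was called, where 2.42% of all genes were called higher and 0 lower. Between the doses 2 of the 4 were called higher at the high dose, against 6.67% of all genes, and again 0 genes were lower. At an unadjusted p below 0.05, the high dose against control gave 32.1% of all genes higher and 0 lower. For the low dose against control these shares were 12.7% and 1.21%, and for the high against the low dose 21.8% and 0.606%. For 3 of the 4 genes the high-dose mice all exceeded the controls, as they did for 25.5% of all genes, with 0.606% lying wholly below. For 1 of the 4, Ccl8, the low-dose mice all exceeded the controls, as they did for 3.64% of all genes, again with 0.606% wholly below. For the high against the low dose, 2 of the 4, Ccl2 and Ccl7, had groups that did not overlap, against 14.5% of all genes. In the difference between doses Ccl7 ranked first and Ccl2 second of the 165 log2 fold changes, Ccl8 ranked 25 and Ccr2 156. Both doses were compared with the same control mice, so their changes are not independent. The 4 genes were chosen with earlier results of these data known, so their shares beside those of the panel are a description only.

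**Figure D2:**
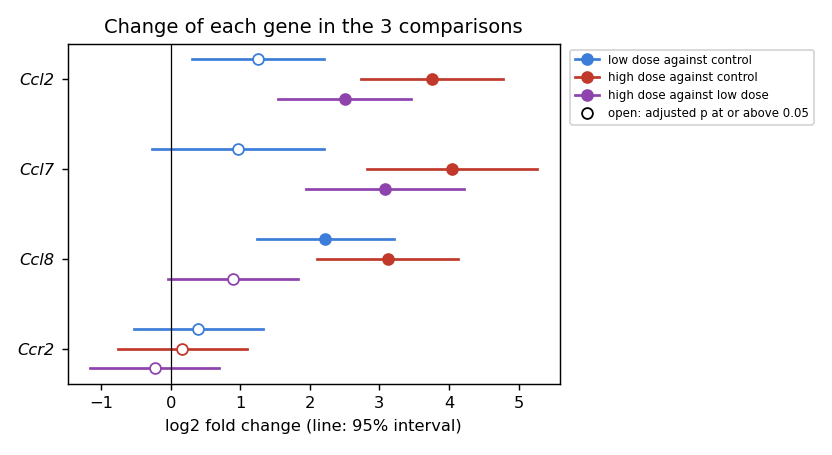
Log2 fold changes of the 4 genes in the 3 comparisons (points) with 95% intervals (lines), by edgeR. Filled points have an adjusted p below 0.05: Ccl2 and Ccl7 in both comparisons of the high dose, and Ccl8 in both comparisons with control.

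Counts of a pair of genes within a lane share its scale, so their ratio does not depend on the scaling. The log2 ratio of raw counts (plus 1) was compared between groups for the 6 pairs of the 4 genes in the 3 comparisons, by an exact two-sided permutation test of 4 against 4 mice, whose smallest possible p is 0.0286. Of the 18 tests 11 reached this p, and adjusted over the 18 tests (Benjamini-Hochberg) each of these stood at 0.0467. With a pseudocount of 5 or with background subtraction the smallest adjusted p was 0.0514 and 0 tests passed, though 8 of the 11 remained at the smallest unadjusted p in both. No ratio difference below therefore passed the adjusted threshold under every setting.

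The ligands did not move in step across the doses. The log2 ratio of Ccl2 to Ccl8 was -1.63, -1.38, -2.89 and -1.51 in low-dose mice 1 to 4 and -0.56, 0.47, 0.00 and -0.13 in high-dose mice, without overlap. The mean log2 ratio of high-dose mice exceeded that of low-dose mice by 1.80 (exact permutation p = 0.0286, adjusted 0.0467, n = 4 each, one of the 8). Ccl7 against Ccl8 gave a larger shift in the same direction between the doses, of 2.42 (exact permutation p = 0.0286, adjusted 0.0467, n = 4 each, one of the 8). Relative to controls, the Ccl7 to Ccl8 ratio was 1.63 lower at the low dose, from -2.99 ± 0.25 to -4.62 ± 0.83 (log2, SD, n = 4 each; exact permutation p = 0.0286, adjusted 0.0467). That difference rests in part on the few Ccl7 counts and had an adjusted p of 0.198 with background subtraction. The Ccl2 to Ccl8 ratio in low-dose mice was 1.33 lower than in controls and did not pass (exact permutation p = 0.0571, adjusted 0.0857, n = 4 each). In high-dose mice it was 0.47 higher than in controls and did not pass (exact permutation p = 0.314, adjusted 0.377, n = 4 each). The Ccl7 to Ccl8 ratio was 0.79 higher in high-dose mice than in controls (exact permutation p = 0.0286, adjusted 0.0467, n = 4 each). With a pseudocount of 5 that difference was 0.32, with an adjusted p of 0.367 by the same test. It too rests in part on the few Ccl7 counts of controls.

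The ratio between Ccl2 and Ccl7, both ligands of Ccr2, shifted less. On the log2 scale it was 2.46 ± 0.63 for controls, 2.76 ± 0.27 for low-dose mice and 2.14 ± 0.23 for high-dose mice (SD, n = 4 each). The difference from control did not pass at either dose (exact permutation p = 0.40 for the low and 0.371 for the high dose, n = 4 each). Between the doses it was 0.62 lower at the high dose (exact permutation p = 0.0286, adjusted 0.0467, n = 4 each), and 0.35 lower, adjusted 0.129, with a pseudocount of 5. Expressed against its own high-dose change on the log2 scale, the low-dose change came to 71.3% for Ccl8, 33.4% for Ccl2 and 23.9% for Ccl7, a description without a test.

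**Figure D3:**
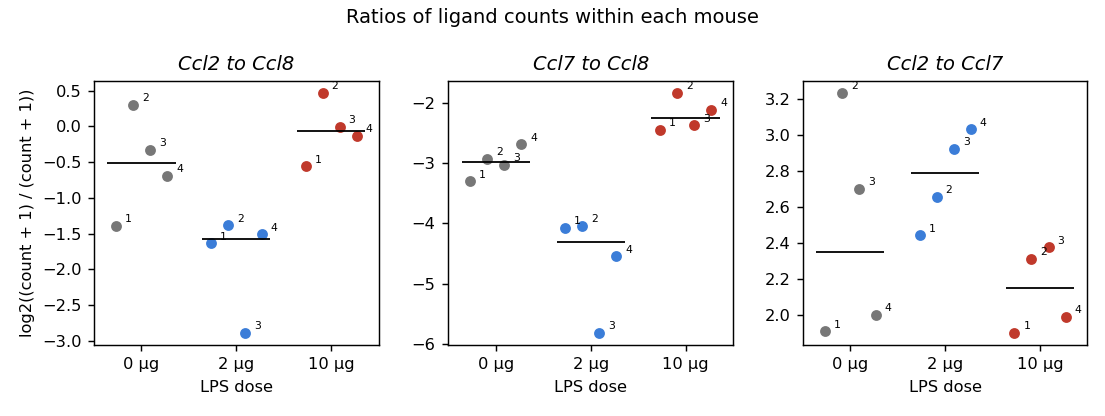
Log2 ratios of raw counts (plus 1) of Ccl2 to Ccl8, Ccl7 to Ccl8 and Ccl2 to Ccl7 within each mouse against LPS dose, with mouse numbers and a line at each group median. In the first and second panels all low-dose mice lie below all high-dose mice, and in the third panel all low-dose mice lie above all high-dose mice.

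Each ligand rose relative to Ccr2 at the high dose. The log2 ratio to Ccr2 rose by 3.51 for Ccl2, 3.82 for Ccl7 and 3.04 for Ccl8 against control, without overlap of the groups (exact permutation p = 0.0286, adjusted 0.0467, n = 4 each, all among the 8). At the low dose the Ccl8 to Ccr2 ratio was 2.08 higher than in controls (exact permutation p = 0.0286, adjusted 0.0467, n = 4 each, one of the 8). The ratios of Ccl2 and Ccl7 to Ccr2 were 0.76 and 0.45 higher at the low dose and did not pass (adjusted p = 0.377 and 0.571, exact permutation).

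Likeness to each gene was described by Pearson's correlation of log2 scaled counts (plus 1) over the 12 lanes among the other 164 tested genes. The lanes share the dose groups, so genes that answer to dose resemble each other. Ccl2 and Ccl7 were each other's closest gene (Pearson 0.98, Spearman 0.93), and deviations from the group means gave 0.84. In those deviations Cd40 stood closer to Ccl2, at 0.87. Over all lanes the next to both was Cd40, a costimulatory receptor of antigen-presenting cells (0.96 with Ccl2 and 0.94 with Ccl7). The third places were held by C1r, a protease of the classical complement pathway, for Ccl2 (0.96), and by Tlr2, a receptor for bacterial lipoproteins, for Ccl7 (0.93).

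For Ccl8 the closest genes were others, Cfb (complement factor B, 0.87), Cxcl9 (an interferon-induced chemokine, 0.86) and Il8rb (a neutrophil chemokine receptor now named Cxcr2, 0.85). In deviations from group means these fell to 0.16, 0.42 and -0.41, whereas Ccl7 held 0.77 with Ccl8. Ccr2 correlated weakly with the ligands (0.21 with Ccl2, 0.27 with Ccl7 and 0.21 with Ccl8). Its closest genes were Masp2 (a protease of the lectin pathway, 0.75), Hras1 (a small GTPase, 0.67) and Il4 (a type 2 cytokine, 0.58). Il4 exceeded the negative limit in 8 of 12 lanes. Masp2 exceeded it in 11, and its lowest low-dose scaled count was 2.39. Spearman's correlation with Ccr2 was 0.68 for Masp2, 0.64 for Hras1 and 0.53 for Il4. None of these 3 was called in any comparison.

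Of the genes beside the 4 on their chromosomes, Ccl11, Ccr1 and Ccr3 were measured. Ccl11, an eosinophil chemokine encoded between Ccl7 and Ccl8, stood at 163.1 ± 49.7, 125.3 ± 30.7 and 193.6 ± 35.8 scaled counts in control, low-dose and high-dose mice (SD, n = 4 each). It was described after its values were seen, and its differences from control, -0.38 ± 0.23 at the low and 0.25 ± 0.23 at the high dose, did not pass (log2, SE; adjusted p = 0.501 and 0.505 by edgeR). Ccr1, a receptor of Ccl7 and of Ccl3 and Ccl5, stood at 21.5 ± 5.71 in controls and 41.2 ± 3.54 in high-dose mice (SD, n = 4). The Ccr1 counts of high-dose mice all exceeded those of controls, but the test did not pass (0.93 ± 0.35, log2, SE; adjusted p = 0.0797 by edgeR). Ccr3, the eosinophil receptor of Ccl11 and Ccl7, had a difference of 0.15 ± 0.66 at the high dose against control and did not pass (log2, SE; adjusted p = 0.886 by edgeR).

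Among the other chemokine genes, 4 of 9 C-C ligands were called higher at the high dose, Ccl5 (4.73), Ccl4 (1.78), Ccl3 (1.71) and Ccl19 (1.40, log2 fold changes), 0 were lower, and the median of the 9 was 0.76. Of 6 C-X-C ligands 5 were higher and 0 lower with a median of 2.78, from Cxcl9 (5.40) and Cxcl10 (3.92) to Cxcl5 (2.75) and Cxcl2 (2.05). These sizes are fitted values against low controls: Cxcl9 and Cxcl5 exceeded the negative limit in 2 of 4 control lanes each and Cxcl2 in 0 of 4. Of 7 other chemokine receptors 2 were higher, Il8rb and Ccr7, and 0 lower, with a median of 0.93, and both were above the limit in 0 of 4 control lanes. Of all 165 genes 22.4% were called higher at the high dose, with a median log2 fold change of 0.24. At the low dose 1 of the 9, 0 of the 6 and 1 of the 7 passed, all higher, and between the doses 0, 2 and 1.

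The next list holds genes that sense LPS or are known to induce monocyte chemokines. Of 12 tested, the high dose raised 4 and lowered 0, Tlr2 (1.48 ± 0.29), Il1b (1.27 ± 0.34), Csf1 (0.91 ± 0.16) and Ly96 (0.42 ± 0.12, log2, SE), with a median of 0.52, beside 22.4% of all genes called higher. Tlr4 (0.29 ± 0.14; adjusted p = 0.161 by edgeR), Tnf (2.06 ± 0.72; 0.0611) and Il6 (0.75 ± 0.97; 0.655) did not pass. The Tnf counts of high-dose mice all exceeded those of controls. Tnf was above the negative limit in 1 of 4 control and 2 of 4 low-dose lanes, and Il6 in 2 and 3 of 4. The sizes given for these genes therefore rest in part on counts near background. With the low dose 0 of the 12 passed, with Tnf at 0.67 ± 0.76 and Il1b at 0.48 ± 0.35. Between the doses 1 of the 12 was higher, Csf1, the macrophage growth factor. Of 10 genes of G proteins, kinases and actin regulators that act below chemokine receptors, 0 passed in any of the 3 comparisons, with a median of -0.03 at the high dose.

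Leukocyte markers were counted beside the ligands, and their part in the ligand changes was not tested. The shares of all 165 genes called higher were 22.4% at the high dose, 2.42% at the low dose and 6.67% between the doses. Of 18 listed monocyte and macrophage markers 3 were in the table, C1qa, C1qb and C3ar1, which are also complement genes. All 3 were higher at the high dose, 0 of 3 passed at the low dose and 0 of 3 between the doses. Their summed scaled counts were 1179 to 1916 for controls, 1264 to 4914 for low-dose mice and 3851 to 4745 for high-dose mice. Low-dose mouse 3, lowest of its group for Ccl2, Ccl7 and Ccr2, held the sum of 1264, inside the control range. That mouse was also lowest of its group in the sums of neutrophil markers (125.1) and of T and NK cell markers (82.1). Ccr2, itself a monocyte marker, did not pass at either dose.

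Of 11 listed neutrophil markers 3 were in the table, Il8ra, Il8rb and Itgb2, an integrin subunit of leukocytes in general. Itgb2 made up most of their sum (control means of 99.8 scaled counts for Itgb2, 2.28 for Il8ra and 4.45 for Il8rb), which ran from 77.6 to 124.7 for controls, 125.1 to 281.8 for low-dose mice and 196.2 to 356.7 for high-dose mice. Il8ra and Il8rb did not exceed the negative controls in any control lane. Of these 3, 2 were higher at the high dose, 1 at the low dose and 1 between the doses, with 0 lower in each. Of 12 listed T and NK cell markers 7 were in the table, with sums of 54.0 to 93.2, 82.1 to 138.3 and 112.3 to 133.3 in the same order. Cd4 and Lta had the highest control means of the 7, at 33.0 and 16.8 scaled counts. At the high dose neither passed (0.41 ± 0.41 and 0.01 ± 0.34, log2, SE; adjusted p = 0.527 and 0.984 by edgeR). Cd40lg, Fasl and Ccr4 did not exceed the negative controls in any control lane. Of these 7, 2 were higher at the high dose, Il18rap and Il23r, a share near that of all genes. At the low dose 0 passed and between the doses 1, Il23r, with 0 lower in each comparison.

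**Figure D4:**
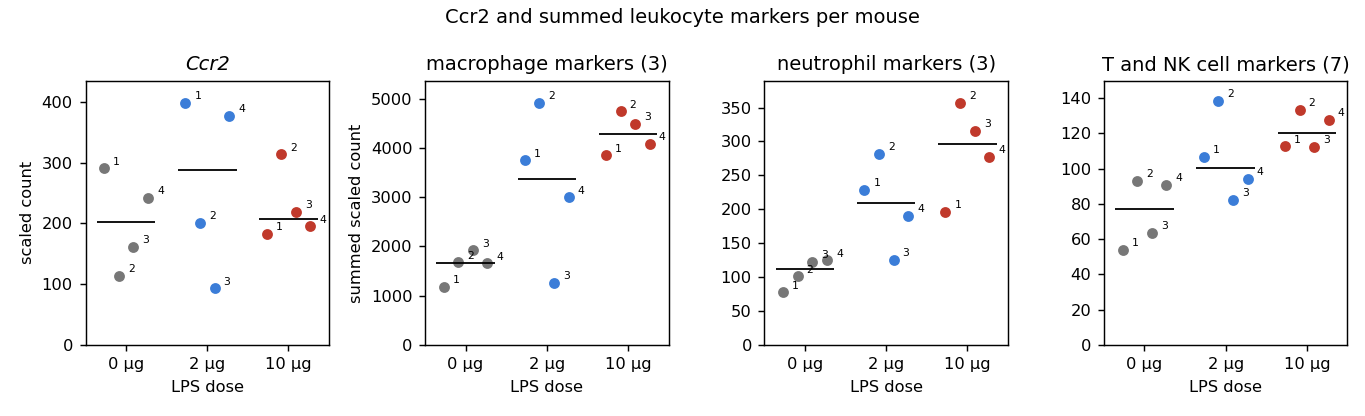
Scaled counts of Ccr2 and summed scaled counts of 3 macrophage, 3 neutrophil and 7 T and NK cell markers against LPS dose, 1 point per mouse with its number and a line at the group median. The high-dose mice lie above all controls in each marker sum, while the groups overlap for Ccr2. Cd4, the T and NK cell marker with the highest control mean, did not pass at the high dose.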

How the data were processed

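The authors deposited 1 table of raw digital counts from 12 lanes, with 185 endogenous, 8 negative and 6 positive control probes. It was handled as estimated counts (expected counts), since the deposited columns also hold a decimal binding density line. All probe values are whole numbers, so rounding changed none. The kit and the groups come from the design text and the sample titles, and image processing is not given in the sources used here. Per the labels' protocols, RNA integrity numbers exceeded 9.7 throughout.

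Lanes were scaled by 6 reference genes (Tubb5, Pgk1, Hprt1, Gusb, Gapdh, Cltc). Of 179 other genes, 165 exceeded the negative limit in at least 4 of 12 lanes and were tested with edgeR 4.0.16 (R 4.3.3), on all lanes, with group as the term and Benjamini-Hochberg adjustment, at 0.05. The procedure was tested on simulated counts with the same spread for every gene, which does not cover the wider spread of the 4 genes. No lanes were duplicates, with a lowest chi-square per degree of freedom of 15.2 over 18 pairs within groups. Mice of 1 group are separate animals, per the labels' protocols.

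The members, lists and tests were chosen with earlier results of these data known. Named were the 4 genes, the 3 genes most like each, Tlr4, Ly96, Il1b, Tnf, Il6, Csf1, Ccr1 and Ccr3, and of each list up to 2 highest and 2 lowest called at the high dose. Alternatives were other scalings, limma-voom (limma 3.58.1), DESeq2 1.42.0, the series' own test, other filters, background subtraction, only the 2 groups, a replicate block and lanes left out.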

Additional observations from a re-analysis of the deposited data

Results flagged for a closer look

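Of 39 groups of 4 mice examined, 4 held a single mouse well apart from its group. Chance does this in about 1 in 20 groups, or 1.95 of 39. Ccl8 stood at 165.3 scaled counts in control mouse 1 (raw count 196), against 47.9 to 56.9 in the other controls. Csf1 stood at 490.0 in high-dose mouse 1, against 734.3 to 757.3 in the others. Il1b stood at 46.4 in low-dose mouse 2, against 25.5 to 27.2. Il6 stood at 41.6 in low-dose mouse 4, against 3.19 to 5.43. It exceeded the negative limit in 3 of 4 low-dose lanes, so the other mice lay near background.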

How the results depend on the processing

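Ccl2 and Ccl7 passed against control and against the low dose, and Ccl8 against control, at the high dose in every alternative that gave a value. Their high-dose log2 changes ran from 3.14 to 3.90, 3.41 to 4.56 and 2.46 to 3.77. Ccl7 could not be tested where all 12 lanes had to exceed the negative limit. The low-dose call of Ccl8 held in 17 of 26 alternatives and was lost with TMM (2.09), DESeq2 size factors (2.05), only the 2 groups (2.23) and without control mice 2 and 4 (1.80). Leaving out 1 mouse gave 1.92 to 2.87 for Ccl8, 0.72 to 1.53 for Ccl2 and 0.37 to 1.48 for Ccl7 at the low dose. Ccr2 at the high dose turned to -0.13 (TMM), -0.17 (DESeq2 size factors), -0.46 (total count) and -0.18 (DESeq2 test), and ran from -0.025 to 0.40 with 1 mouse left out. Between the doses it ran from -0.51 to 0.028 in that setting.

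Against 4 genes called at the low dose, the DESeq2 test called 9, limma-voom 2, the series' own test 11, the fit of only the 2 groups 1, and the fit without control mice 2 and 4 called 0. Against 37 at the high dose, DESeq2 size factors gave 59, total count 92, the DESeq2 test 67 and the series' own test 24. These scalings moved the median of all genes from 0.24 to 0.00 (TMM), -0.02 (DESeq2 size factors) and -0.34 (total count), and split the calls into 34 higher and 20 lower, 34 and 25, and 30 and 62. The DESeq2 test gave 35 and 32. Against 11 between the doses, total count gave 45 (9 higher, 36 lower), the DESeq2 test 21 (15 and 6), the series' own test 21, and positive controls, background subtraction and leaving out control mice 2 and 4 gave 7 each. With 1 mouse left out, the counts ran from 1 (control mouse 2, 3 or 4, or mouse 1 of the low dose, removed) to 14 (mouse 3 of the low dose removed), 30 to 45, and 6 (mouse 4 of either dose removed) to 14 (mouse 1 of the high dose removed).

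Ratio changes follow as the value with a pseudocount of 5 and then with background subtraction. At the low dose, Ccl7 to Ccl8 gave -1.78 and -1.17, and Ccl8 to Ccr2 2.01 and 2.15. At the high dose, Ccl2 to Ccr2 gave 3.40 and 3.60, Ccl7 to Ccl8 0.32 and 1.62, Ccl7 to Ccr2 3.28 and 4.72, and Ccl8 to Ccr2 2.96 and 3.11. Between the doses, Ccl2 to Ccl7 gave -0.35 and -0.95, Ccl2 to Ccl8 1.75 and 1.83, Ccl2 to Ccr2 2.70 and 2.79, Ccl7 to Ccl8 2.10 and 2.78, and Ccl7 to Ccr2 3.04 and 3.74. Ccl2 to Ccl7 reversed to -0.18 at the low dose with background subtraction and to 0.12 at the high dose with a pseudocount of 5. The cause of these changes was not tested.

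The labels do not say that replicate numbers pair the mice. Correlations of deviations ran from -0.155 to 0.593 over the 12 pairs with the same number. They were over 0.1 in 9 of these pairs, and 7 of 12 lanes correlated best with their own number, which is a hint of pairing from the data. Whether the mice are paired was not tested. As the labels name no pairs, the main fit and the permutation tests did not use the numbers. With the replicate block Ccl8 at the low dose stood at 2.36 (adjusted p = 0.0496 by edgeR), no call of the 4 genes changed, and the counts were 3, 34 and 11.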
